A study of Mus musculus with 2 samples.

Results

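The genes described here encode 6 peroxiredoxins (Prdx1, Prdx2, Prdx3, Prdx4, Prdx5 and Prdx6), thioredoxin (Txn1), the cytosolic thioredoxin reductase (Txnrd1) and the glutathione peroxidases Gpx1 and Gpx4. They were chosen by name as antioxidant enzymes, and all 10 were found among the 22556 genes of the count table. Messenger RNA was sequenced from 2 replicates of iXist-ChrX-Dom mESCs, a female mouse embryonic stem cell line of Dom/129S x Cast origin in which a TetOn promoter replaces the endogenous Xist promoter on the Dom/129S allele. Both libraries came from untreated cells at 0 h, before Xist induction, so the series held 1 group and no comparison between conditions. The cells were grown in serum with LIF on feeders that were removed by pre-plating, in a medium that held β-mercaptoethanol, a reducing agent. Nothing states that the replicates were separate cultures, so their spread may be technical.

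Peroxiredoxins reduce hydrogen peroxide and organic peroxides with a peroxidatic cysteine, which is oxidised in the reaction and, in most members, returned to its reduced form by thioredoxin. Thioredoxin is in turn reduced by thioredoxin reductase at the expense of NADPH, whereas glutathione peroxidases draw their electrons from glutathione. Thioredoxin reductase and both glutathione peroxidases studied here carry selenocysteine, which is inserted at an in-frame TGA codon that would otherwise end translation.

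The active-site codons that define the family are shown first, because they separate the cysteine enzymes from the selenocysteine enzymes. Each line gives coding sequence of the principal GENCODE M21 transcript (GRCm38, the assembly of mm10), 5′ to 3′ on the coding strand, with 9 codons on either side where the reading frame allowed. Capitals mark the codon of the peroxidatic cysteine in the peroxiredoxins, of the first active-site cysteine in Txn1, and of selenocysteine in the last 3 genes.
Prdx1: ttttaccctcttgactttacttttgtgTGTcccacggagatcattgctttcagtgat
Prdx2: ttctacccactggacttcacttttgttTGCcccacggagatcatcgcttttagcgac
Prdx3: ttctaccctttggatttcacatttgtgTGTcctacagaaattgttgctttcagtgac
Prdx4: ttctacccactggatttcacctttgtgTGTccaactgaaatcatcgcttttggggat
Prdx5: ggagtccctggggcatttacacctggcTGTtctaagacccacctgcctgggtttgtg
Prdx6: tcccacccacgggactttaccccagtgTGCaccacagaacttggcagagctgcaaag
Txn1: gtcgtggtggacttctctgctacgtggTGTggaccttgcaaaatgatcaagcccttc
Txnrd1: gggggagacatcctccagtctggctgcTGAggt
Gpx1: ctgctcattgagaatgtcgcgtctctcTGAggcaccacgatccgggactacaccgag
Gpx4: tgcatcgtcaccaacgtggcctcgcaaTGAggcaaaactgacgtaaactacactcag

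These windows fell into recognisable groups. Prdx1, Prdx2, Prdx3 and Prdx4 were identical to each other at 75.4% to 82.5% of the 57 bases, whereas Prdx5 and Prdx6 matched the other peroxiredoxins, and each other, at 36.8% to 56.1%. The TGA of Txnrd1 was codon 498 of 499, the last but one, while that of Gpx1 was codon 47 of 201 and that of Gpx4 codon 73 of 197. Despite the similarity around the active site, none of the 45 pairs of these genes shared a run of 50 bases between any of their transcripts, and the longest identical stretch between the principal transcripts of Prdx1 and Prdx2 was 14 bases. Copies elsewhere in the genome did share such runs with some members, and the main ones are given gene by gene.

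Replicate 1 held 23716499 counts and replicate 2 held 20275749, which puts the limit that a count of 0 allows (3 counts) at 0.126 and 0.148 counts per 1000000 (CPM). Intervals and such limits cover counting error only. Of 10 ES cell markers, 9 reached 10 transcripts per 1000000 (TPM), against 0 of 8 feeder fibroblast markers and 0 of 6 neural markers. The summed level of the fibroblast list was 2.99 TPM in replicate 1 and 0.722 in replicate 2, with Lum at 0, and that of the neural list was 5.01 and 4.2 TPM, with Sox1 and Olig2 at 0. Of 6 primitive endoderm markers 1, Dab2 at 12.2 TPM, reached that level, and their sum was 16.2 and 15.9 TPM. One label calls the cell type "mESC to NPC", and the markers were those of mESCs. Of the 10 ES cell markers, 8 were lower in replicate 2, 1 was higher and 1 was within counting error by the test described with the replicates, which called 45.7% of all genes lower and 15.1% higher. Their median log2 ratio was -0.60, and Pou5f1, with 1129 and 142 counts, and Dppa5a, with 2915 and 298, named for their low ratios of -2.76 and -3.06, fell about as far as Prdx2 and Gpx1. In bulk RNA, fewer cells of a type and less RNA per cell cannot be told apart.

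The 10 genes received 59896 counts in replicate 1 and 37883 in replicate 2. This was 0.253% of all counts (95% Wilson interval 0.251 to 0.255) and 0.187% (0.185 to 0.189), a mean of 0.220% ± 0.0465 (SD, n = 2). The family's share was thus smaller in replicate 2 beyond counting error. With the 1% of genes with the most counts left out, Prdx1 among them, the shares of the rest were 0.138% and 0.136%. Prdx1 and Txn1 together took 79.7% of the family's counts in replicate 1 and 77.9% in replicate 2, so the remaining 8 genes shared about the same part in each library. Within that sum the balance moved: Prdx1 alone took 60.0% of the family's counts in replicate 1 and 48.5% in replicate 2, while Txn1 took 19.7% and 29.4%.

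Levels were compared between genes as TPM with exonic length, the union of annotated exons, since the RNA was polyadenylated. On this scale Txn1 and Prdx1 were the most highly expressed members, followed by Prdx4, then by Txnrd1, Prdx6 and Prdx3, and at distance by Prdx2, Gpx4, Gpx1 and Prdx5. Of 12276 genes with a mean of at least 1 TPM, the median was 18.4 TPM and the top 10% began at 184 TPM. Txn1, Prdx1 and Prdx4, 3 of 10, reached the top 10%, and 7 of 10 lay above the median. With span length Prdx6 took the place of Prdx4 there, at percentile 90.5 against 86.3, and by CPM Txn1 and Prdx1 were the 2 that remained. The ranges of the 2 replicates separated Prdx1 from Prdx4, Prdx4 from Txnrd1 and Prdx3 from Prdx2. They overlapped for every other pair of neighbours: Txn1 with Prdx1, Txnrd1 with Prdx6, Prdx6 with Prdx3, and each step from Prdx2 down to Prdx5. In each library taken by itself, Prdx6 exceeded Prdx3, Gpx4 exceeded Gpx1 and Gpx1 exceeded Prdx5. The other overlapping pairs changed order between the libraries.

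**Figure D1:**
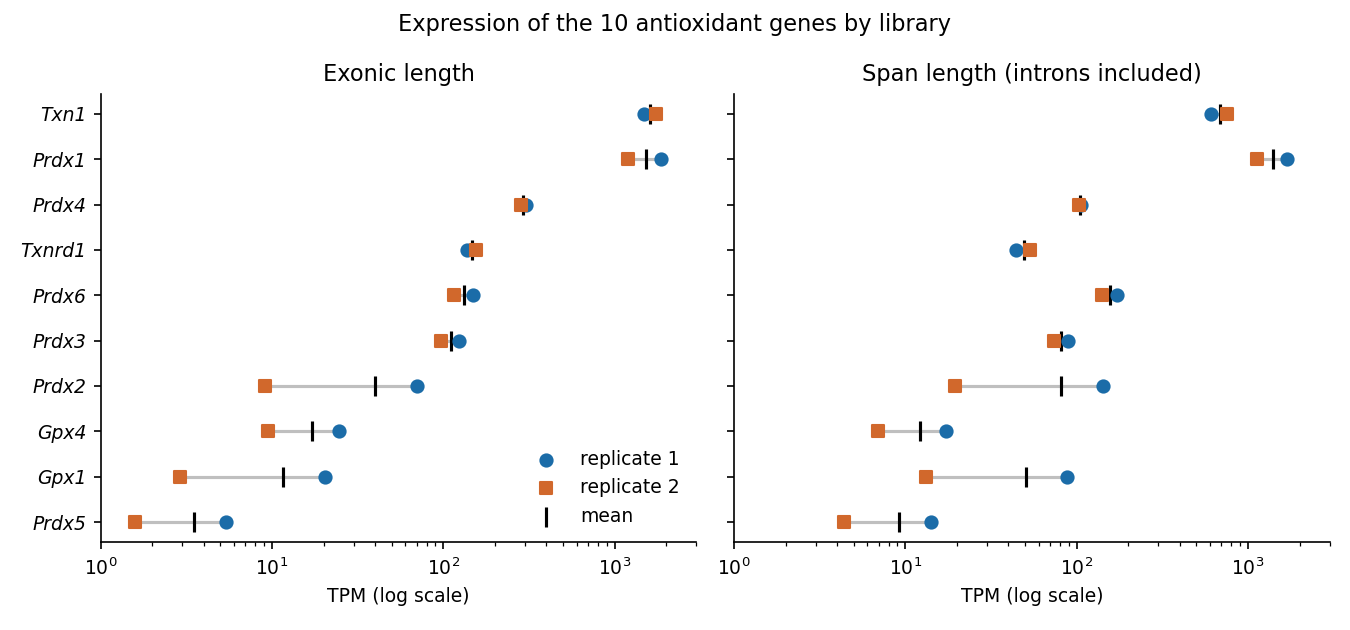
TPM of each gene in replicate 1 (circles) and replicate 2 (squares) with their mean (bar), on a log axis, with exonic length on the left and the full transcribed span on the right. Txn1 and Prdx1 lie between 1188 and 1871 TPM with exonic length, and the replicates lie farthest apart for Prdx2, Gpx1, Prdx5 and Gpx4.

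By group, the peroxiredoxins made up 60.2% of the family's summed exonic TPM in replicate 1 and 46.9% in replicate 2. Thioredoxin with its reductase made up 38.7% and 52.7%, and the glutathione peroxidases 1.08% and 0.343%. The order of these first 2 groups was opposite in the libraries with exonic length and also with the length of the longest coding transcript. The peroxiredoxins came first in both libraries with span length (74.4% and 63.9%) and with principal transcripts (68.3% and 55.3%). The glutathione peroxidases were the smallest group in both libraries with each of these lengths. Among the peroxiredoxins themselves, Prdx1 held 74.1% of their summed exonic TPM in replicate 1 and 70.2% in replicate 2, and Prdx4 was next with 12.1% and 16.7%.

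Prdx1 (chr4:116685598-116700000, plus strand) encodes a cytosolic peroxiredoxin that also acts as a chaperone when overoxidised. It had 35950 counts in replicate 1 and 18359 in replicate 2, or 1871 and 1188 TPM with exonic length, a mean of 1529 ± 482 (SD, n = 2). Replicate 1 was the higher library, and Prdx1 ranked 54 of 12276 expressed genes. Its level depended on the length assumed: with that of its principal transcripts in place of the exon union of 2544 bases, the mean was 2146 TPM, above Txn1 in both libraries. With the longest coding transcript the mean was 1603 TPM, and in replicate 2 Prdx1, at 1244 TPM, lay below Txn1, at 1648 TPM. Processed pseudogenes shared part of the Prdx1 sequence: Gm21399 held 20.3% and Gm7204 17.1% of the 50-base words of its principal transcript.

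Prdx2 (chr8:84969647-84974313, plus strand) encodes another cytosolic member, best known as a major protein of red blood cells. Its counts were 988 and 103, or 70.5 TPM in replicate 1 and 9.15 TPM in replicate 2 with exonic length, and 39.8 ± 43.4 on average (SD, n = 2). The SD exceeded the mean, and in both libraries the exonic level lay below those of Prdx3, Prdx6, Txnrd1, Prdx4, Prdx1 and Txn1. The exonic TPM of Prdx1 was 26.5 times that of Prdx2 in replicate 1 and 129.9 times in replicate 2. The pseudogene Tdpx-ps1 shared 8.96% of the 50-base words of the longest Prdx2 transcript.

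Prdx3 (chr19:60864065-60874538, minus strand) and Prdx5 (chr19:6906818-6909645, minus strand) encode the peroxiredoxins of mitochondria, Prdx5 being found also in peroxisomes and the cytosol. Prdx3 had 1378 and 870 counts, or 123 and 96.9 TPM with exonic length (110 ± 18.7, SD, n = 2), and ranked 2085 of the expressed genes. Prdx5 was the lowest member, with 59 and 14 counts, or 5.40 and 1.59 TPM (3.50 ± 2.69, SD, n = 2), and a rank of 9773. Prdx3 exceeded Prdx5 in both libraries, by 22.9 times in replicate 1 and 60.8 times in replicate 2, on the exonic TPM scale. Of the 50-base words of the longest Prdx5 transcript, 29.7% lay on the opposite strand of annotated Trmt112 transcripts, a neighbour with 4 and 1 counts in a table counted by strand.

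Prdx4 (chrX:155323919-155338454, minus strand) encodes the peroxiredoxin of the endoplasmic reticulum and the only X-linked member. It had 2280 counts in replicate 1 and 1696 in replicate 2, or 305 and 282 TPM with exonic length, a mean of 293 ± 16.1 (SD, n = 2). The replicates lay close together, and Prdx4 ranked 690 of all expressed genes. The study used these libraries to order genes by their level before Xist induction. Among 530 X-linked genes with at least 1 TPM, Prdx4 ranked 56, inside the high class of an equal division into low, medium and high, which began at 83.1 TPM, and above the X-linked median of 37.6 TPM. The division was made here over these genes, and the study's own classes may rest on another set. In replicate 1 alone Prdx4 ranked 53 and in replicate 2 alone 64. With the span length, which counts the introns of a gene that is 14.7 times longer in the genome than in its exons, it ranked 130 of 532, and by CPM 171 of 509, which is just outside the high class.

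Prdx6 (chr1:161240111-161251166, minus strand) encodes a peroxiredoxin with a single catalytic cysteine, which is reduced with glutathione rather than thioredoxin and also has phospholipase activity. It had 2813 and 1749 counts, or 149 and 115 TPM with exonic length, a mean of 132 ± 23.9 (SD, n = 2) and a rank of 1749. Replicate 1 was again higher. The related gene Prdx6b was listed with 0 counts in both libraries and shared only 0.299% of the 50-base words of the longest Prdx6 transcript.

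Txn1 (chr4:57943372-57956411, minus strand) encodes cytosolic thioredoxin, an electron donor of peroxiredoxins. It had 11817 counts in replicate 1 and 11140 in replicate 2, or 1488 and 1745 TPM with exonic length, a mean of 1617 ± 182 (SD, n = 2) and a rank of 51. Unlike the peroxiredoxins as exonic TPM, it was higher in replicate 2. Txnrd1 (chr10:82833950-82897724, plus strand), its reductase, had 4208 and 3860 counts, or 137 and 156 TPM (146 ± 13.6, SD, n = 2), and ranked 1581. The ratio of exonic TPM of Txn1 to Txnrd1 was nearly equal in the libraries, 10.9 in replicate 1 and 11.2 in replicate 2, whereas Prdx1 was 1.26 times Txn1 in replicate 1 and 0.681 times in replicate 2. The pseudogene Txn-ps1 shared 2.50% of the 50-base words of the longest Txn1 transcript. The gene Eid3 overlaps 2.05% of the Txnrd1 span on the same strand and had 0 counts in both libraries.

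Gpx1 (chr9:108339079-108340344, plus strand) encodes the main soluble glutathione peroxidase, and Gpx4 (chr10:80047165-80056439, plus strand) the enzyme that reduces lipid hydroperoxides in membranes and restrains ferroptosis. Gpx1 had 165 counts in replicate 1 and 19 in replicate 2, or 20.4 and 2.92 TPM with exonic length, a mean of 11.6 ± 12.3 (SD, n = 2). Gpx4 had 238 and 73 counts, or 24.8 and 9.45 TPM, a mean of 17.1 ± 10.8 (SD, n = 2). Both were well below Txn1, Prdx1 and Prdx4 in either library, and both ranked near the middle of expressed genes or lower, Gpx4 at 6319 and Gpx1 at 7186. Gpx4 carried the largest uncertainty from copies: Gpx4-ps2 transcripts held 61.7%, and another processed pseudogene 7.93%, of the 50-base words of its longest coding transcript, and how fragments mapping to both places were treated in the mRNA libraries is not given in the sources used here. For its chromatin RNA libraries the study let STAR report uniquely mapping reads only. Gpx1 shared no such word with another gene.

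With span length the order changed, because introns are counted in the length and the genes differ in their share of intron. The mean span TPM was 1405 for Prdx1, 683 for Txn1, 156 for Prdx6, 104.5 for Prdx4, 81.1 for Prdx2, 81.1 for Prdx3, 50.6 for Gpx1, 49.0 for Txnrd1, 12.1 for Gpx4 and 9.22 for Prdx5. Txnrd1, whose span is 15.7 times its exonic length, had a mean below that of Gpx1, whose span is 1.18 times its exonic length, but their replicate ranges overlapped, with Txnrd1 at 44.5 and 53.6 and Gpx1 at 87.9 and 13.3 span TPM. Span ranges also overlapped from Prdx4 through Prdx2 and Prdx3 to Gpx1, and for Gpx4 with Prdx5. Of these neighbours, Prdx3 exceeded Gpx1 and Gpx4 exceeded Prdx5 within each library. Prdx1 and Txn1 remained the highest members and Prdx5 the lowest.

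The replicates were then compared gene by gene. A two-sided exact binomial test set the 2 counts of each gene against the library totals, with Benjamini-Hochberg adjustment over 14536 genes with at least 10 counts. It compares these 2 libraries, not conditions. All 10 members differed beyond counting error at an adjusted p of 0.05, with the largest adjusted p, 0.00338 in this exact test, for Txnrd1. This is read against a background of 60.8% of all genes tested. Lower in replicate 2 were 8 members, of which Prdx4 changed direction under the other scalings and the GC trend, against 45.7% of all genes, and higher were Txn1 and Txnrd1, 2 members, against 15.1%.

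The log2 ratio of CPM, replicate 2 over replicate 1 with 0.5 counts added, gives the size of these differences. Txn1 stood at 0.14 (exact 95% interval 0.10 to 0.18) and Txnrd1 at 0.10 (0.04 to 0.16), while Prdx4 stood at -0.20 (-0.29 to -0.11). Prdx3 at -0.44, Prdx6 at -0.46 and Prdx1 at -0.74 formed a middle group. The 4 least expressed members by exonic TPM had the lowest ratios: Gpx4 at -1.47 (-1.88 to -1.09), Prdx5 at -1.81 (-2.80 to -0.99), Gpx1 at -2.86 (-3.66 to -2.20) and Prdx2 at -3.03 (-3.34 to -2.74). Of 11837 genes with at least 50 counts in sum, 16.0% had a ratio under -1, and counted from the lowest ratio Prdx2 was in place 33 and Gpx1 in place 48. In CPM, Prdx2 was 8.20 times and Gpx1 7.42 times higher in replicate 1.

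**Figure D2:**
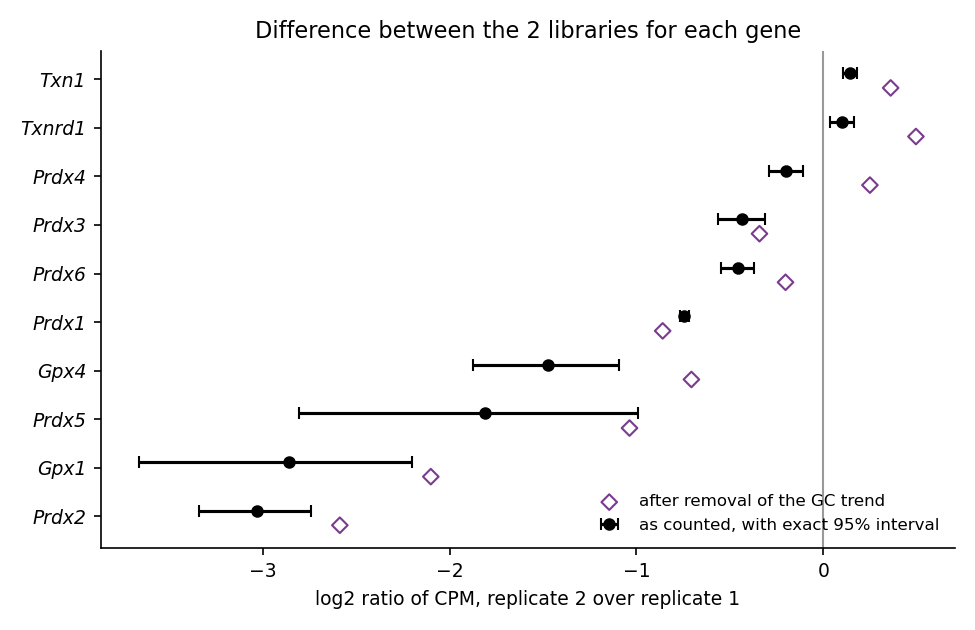
Log2 ratio of CPM, replicate 2 over replicate 1, for each gene as counted (filled circles, bars are exact 95% intervals) and after removal of the trend with GC content (open diamonds). Only Txn1 and Txnrd1 lie above 0 as counted, Prdx4 moves from -0.20 to 0.25, and Prdx2 and Gpx1 stay below -2.

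The median ratio of the 10 members was -0.60, beside -0.26 over the 11837 genes with at least 50 counts in sum and -0.17 over the 9736 genes that reached 50 counts in both libraries, a filter that 8 members passed. Across genes, which are not independent replicates, the ratio fell with GC content of the longest coding transcript (Spearman's rho -0.66 over 9252 autosomal genes) and rose weakly with transcript length (rho 0.25). The 4 members with a ratio under -1 had a GC content of 50.4% to 60.2%, and the other 6 had 42.3% to 50.5%. Transcript lengths overlapped widely, 995 to 1612 bases in the former and 990 to 3622 in the latter. Prdx2 and Prdx4 had nearly the same GC content, 50.4% and 50.5%, with ratios of -3.03 and -0.20.

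**Figure D3:**
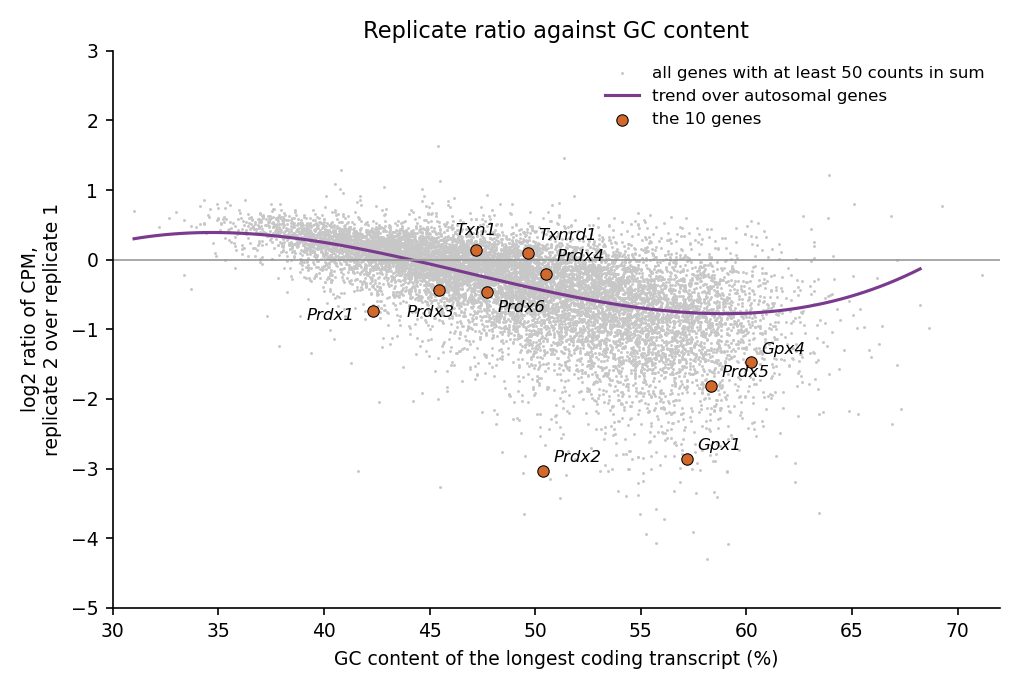
Log2 ratio of CPM, replicate 2 over replicate 1, against GC content for genes with at least 50 counts in sum (grey), the trend over autosomal genes (line) and the 10 genes (orange). Prdx2 and Gpx1 lie far below the line, at -3.03 and -2.86, whereas Txn1, Txnrd1 and Prdx4 lie above it.

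When the expected ratio of each gene was taken from the GC trend, the median over members was -0.52 and that over all genes 0.01. All 10 members still differed beyond counting error, against 44.7% of all genes tested, with 3 higher in replicate 2 (Txn1, Txnrd1 and Prdx4, background 23.1%) and 7 lower (background 21.6%). The ratio of Prdx2 became -2.59, that of Gpx1 -2.10, that of Prdx5 -1.04 and that of Gpx4 -0.71. By this measure Prdx2 was in place 20 and Gpx1 in place 64 from the lowest of 11777 genes. Prdx1, with the lowest GC content of the family, moved the other way, from -0.74 to -0.86. With TMM factors, which shifted every ratio by 0.26, 9 members differed, against 57.7% of genes. Of these 2 were higher (28.8%) and 7 lower (28.9%), and Prdx4 stood at 0.056 with an adjusted p of 0.315 in the exact binomial test. With DESeq2 size factors, which shifted every ratio by 0.31, 9 members differed, against 57.8% of genes. Of these 3 were higher, Prdx4 included (31.6%), and 6 lower (26.1%), while Prdx3 had an adjusted p of 0.0758 in the exact binomial test. The part of GC content in these differences was not tested.

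Other genes of the same pathways were measured in 8 lists of 49 genes, of which 46 had at least 10 counts in each library. Gpx5 and Sod3, an extracellular superoxide dismutase, were the only ones with under 10 counts in sum, both at 0. The median level was 22.0 TPM with exonic length. Of 47 genes tested, 5 were higher in replicate 2, 33 lower and 9 within counting error, beside 15.1% of all genes higher and 45.7% lower, shares against which the counts of each list are read as well. Their median log2 ratio was -0.55, beside -0.60 for the 10 members and -0.26 for all genes with at least 50 counts in sum. The counts depended on the scaling: with TMM factors 11 were higher and 27 lower, beside 28.8% and 28.9% of all genes, and with the GC trend 11 and 18, beside 23.1% and 21.6%.

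The thioredoxin partners were led by Txndc17, a thioredoxin-related protein, at 318 TPM and Txnip, the thioredoxin inhibitor, at 182 TPM with exonic length, both lower than Txn1. With span length Txnip stood at 686 TPM, beside 683 TPM for Txn1. In this list 0 of 8 genes were higher in replicate 2 and 7 lower, by library totals as in all lists. Among the remaining glutathione peroxidases and their reductase, Gsr, glutathione reductase, stood at 82.2 TPM and Gpx8, an endoplasmic reticulum member, at 27.4 TPM. Both had a higher mean than Gpx1 and Gpx4 with exonic length. With span length Gsr, at 25.5 TPM, and Gpx8, at 41.3 TPM, lay below Gpx1, at 50.6 TPM. All 6 genes tested in this list were lower in replicate 2. Gpx3, the plasma enzyme, singled out after its values were seen, had 38 counts in replicate 1 and 1 in replicate 2.

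Glutathione synthesis was led by Gclc, the catalytic subunit of its rate-limiting enzyme, at 117 TPM, and Slc3a2, the heavy chain of the cystine transporter, at 81.5 TPM, with 1 of 7 genes higher and 3 lower. Slc7a11, the light chain of that transporter, also picked after its values were seen, had 17 and 19 counts, or 0.229 and 0.318 TPM. The glutaredoxins, led by Glrx5 at 35.9 and Glrx at 23.9 TPM, were all 4 lower in replicate 2. Of superoxide dismutases and catalase, Sod1 at 373 TPM and Sod2 at 72.6 TPM, the cytosolic and mitochondrial enzymes that make hydrogen peroxide from superoxide, were the highest, and 2 of 3 genes tested were lower.

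**Figure D4:**
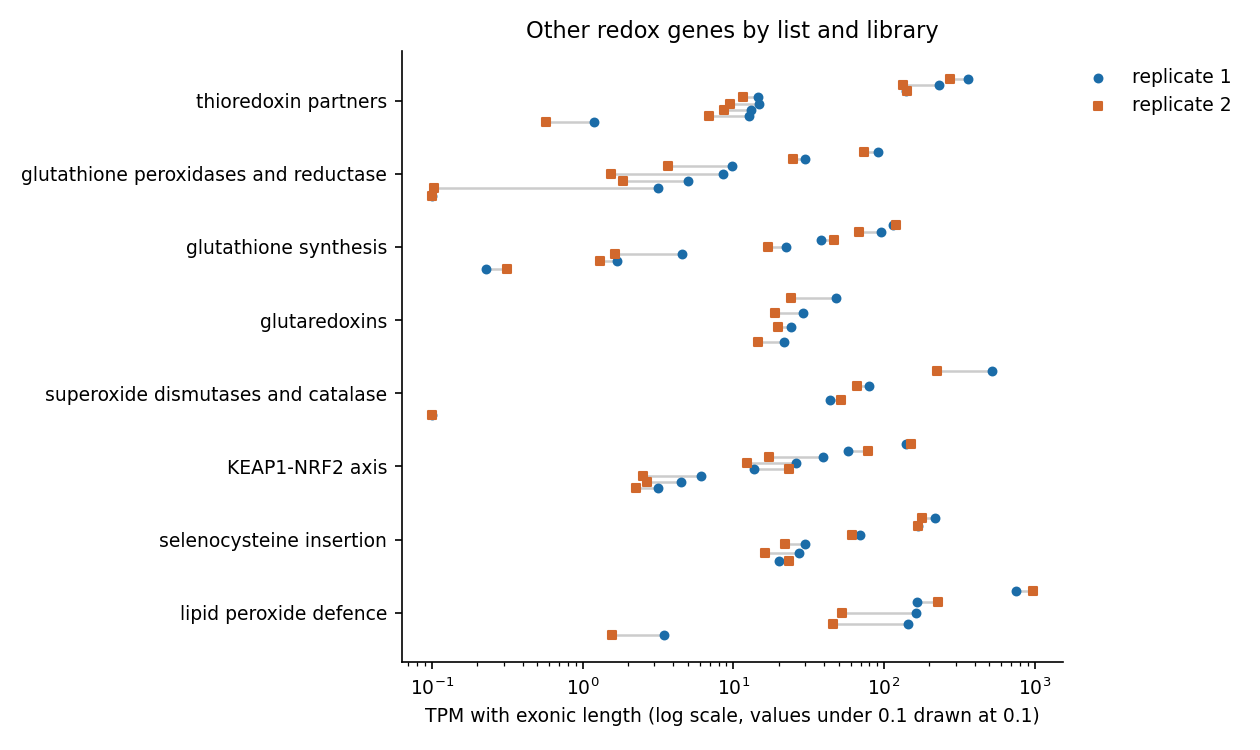
TPM with exonic length of the 49 other redox genes, by list, in replicate 1 (circles) and replicate 2 (squares), on a log axis with values under 0.1 drawn at 0.1. Most pairs have replicate 1 on the right, and Tfrc, with a mean of 855 TPM, is the highest gene.

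In the KEAP1-NRF2 axis, the transcriptional control of antioxidant genes, Nfe2l2 (which encodes NRF2) stood at 145 TPM and Bach1, a repressor at the same elements, at 67.5 TPM, with 2 of 8 genes higher and 4 lower. The selenocysteine machinery that the 3 selenoenzymes depend on was led by Sephs2, which makes the selenium donor, at 198 TPM and Pstk, which phosphorylates the seryl-tRNA, at 167 TPM, with 0 of 6 higher and 4 lower. The list named for lipid peroxide defence, in which Gpx4 acts, also holds genes that are not defence enzymes, so its levels are not a measure of defence. Highest were Tfrc, the transferrin receptor, at 855 TPM and Acsl4, which activates polyunsaturated fatty acids, at 197 TPM. These 2 of 5 genes, with a GC content of 39.8% and 39.0%, were higher in replicate 2. The other 3, Aifm2, Fth1 and Ftl1, named after their values were seen, had 53.6% to 58.1% GC and were lower. The part of GC content in this was not tested.

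Promoters were searched for the core of the antioxidant response element that NRF2 binds, TGACNNNGC on either strand, in the 250 bases before and 50 after each start site in RefSeq (GRCm38.p6). It was found in 4071 of 32851 promoters (12.4%) and in 3781 of 27025 genes (13.99%). Of the members, 9 had 14 promoters in that table, and 2 promoters, of 2 genes, held the motif. Prdx6 was not among the 9. Both matches are shown as read on the strand opposite to the gene, with the 9 bases of the motif in capitals and 10 bases on either side.
Prdx1: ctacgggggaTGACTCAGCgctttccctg
Txnrd1: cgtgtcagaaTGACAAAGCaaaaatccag

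The match of Prdx1 lay at chr4:116685466-116685474, its farthest base 133 bases before the start site, and that of Txnrd1 at chr10:82859114-82859122, 92 bases before 1 of its 3 start sites. A match describes these letters only, and says nothing of binding in these cells. The exonic TPM of these 2 genes, 1529 and 146 on average, fell in different parts of the family's order.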

How the data were processed

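The authors' deposited counts came from featureCounts. Version 1.5.2 is named per the file headers, and it assigned read pairs in reverse-stranded mode to whole transcript features, introns included, of a non-redundant long RNA annotation on mm10. The deposited gene length column, per the file headers, is the length of these features and is called span length. The submitters' processing notes also name Bowtie2 2.3.2 and STAR 2.4.2a, but the alignment of the mRNA libraries is not given in the sources used here. Columns were matched to samples by names that differ from the sample descriptions by 1 letter.

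TPM was computed from counts with exonic lengths of the GENCODE M21 basic annotation (matched for 98.5% of genes) and averaged over replicates. The study's methods also average, and name no length. Alternatives used the span length, the longest coding transcript, the principal transcript (added after seeing the data) and CPM. Counts were compared between libraries by an exact binomial test (scipy 1.17.1) against totals, TMM factors (edgeR 4.0.16), DESeq2 1.42.0 size factors (R 4.3.3), or a GC trend, a polynomial of degree 3 over autosomal genes that reached 50 counts in both libraries. Copies elsewhere were scored by 50-base words in GENCODE transcripts. The medians over all genes used at least 50 counts in sum, where a filter on each library had been planned, and both are given.

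The members and lists were chosen with earlier results of these data known. Named genes are all members, the 2 highest of each list by mean TPM, and those with under 10 counts in sum. Gpx3, Slc7a11, Aifm2, Fth1, Ftl1, Pou5f1 and Dppa5a, the markers at 0 or above a limit, and genes that share sequence or position with a member were named outside this rule.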

Additional observations from a re-analysis of the deposited data

How the results depend on the processing

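Of 146 alternative values for 36 results, 83 stayed within the replicate SD, counting interval or count limit, 59 moved beyond it, and 4 changed sign. For members with a wide SD that limit is loose: the mean of Prdx2, 39.8 TPM, was 9.15 without replicate 1, and that of Gpx1, 11.6 TPM, was 2.92. All 4 changes of sign were in the ratio of Prdx4 between libraries, -0.20 as counted, which became 0.056 with TMM factors, 0.11 with DESeq2 size factors, 0.25 after removal of the GC trend and 0.40 after removal of a trend with GC content and transcript length, the last added after seeing the data. The median ratio of the members, -0.60, became -0.34, -0.29, -0.52 and -0.40 in the same order. The first pair follow from the shifts of 0.26 and 0.31 that those factors give every gene, and the cause of the trend was not tested. The family's mean share of counts, 0.220%, was 0.137% when the 1% of genes with the most counts, Prdx1 among them, were left out of both parts of the share, and 0.390% as a share of TPM. Members in the top 10% numbered 3, against 5 when ranked among all genes with at least 1 count and 2 by CPM. The rank of Prdx4 among X-linked genes, 56, was 130 with span length and 171 by CPM, and 53 to 64 with either replicate left out. Members beyond counting error numbered 10 by totals and with the GC trend and 9 with TMM or DESeq2 factors, the call lost being that of Prdx4 with TMM and of Prdx3 with DESeq2. No paired comparison of conditions was possible because the series held 1 group. With 2 replicates, an SD is itself poorly known, and leaving one out leaves a value with no spread. Prdx5 and Gpx1, with 14 and 19 counts in replicate 2, are limited by depth there.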
